A study of Homo sapiens with 16 samples.

Results

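The genes of the mitochondrial genome were followed by counting RNA sequencing reads per gene in NCI-H929 cells, a human line from multiple myeloma, a cancer of plasma cells. They were taken as every gene placed on chromosome MT in the deposited count tables, which gave 35 genes of 57500: 13 mRNAs and 22 tRNAs. The 2 ribosomal RNAs of this genome are not analysed here. The 16 libraries fall into 4 groups of 4: cells given 3 nM of p300 degrader 27 for 6 h, their DMSO-treated controls, cells labelled p300 KO, and cells labelled NTC. All 4 groups are the same cell line, and all libraries carry batch 1. A degrader is a small molecule that marks a chosen protein for breakdown by the cell, and p300, encoded by EP300, is a nuclear acetyltransferase that coactivates transcription. The labels do not say how the KO was made or if it is 1 clone. They also do not say if replicates are separate cultures. The p-values therefore reflect the scatter of these libraries alone, and that scatter may be technical.

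Mitochondrial DNA is a small circle that each cell holds in many copies. A dedicated RNA polymerase, POLRMT, helped by TFAM and TFB2M, copies both strands into long RNAs. Most tRNA genes stand between the mRNA genes, and cutting the tRNAs out frees the mRNAs. Every protein of this genome is a subunit of respiratory complex I, III or IV or of the ATP synthase, and the tRNAs serve the mitochondrial ribosome. Of the members, 12 mRNAs and 14 tRNAs lie on the plus strand of the reference, while 1 mRNA, MT-ND6, and 8 tRNAs lie on the minus strand.

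The tRNA genes below are printed because they are the members whose share of mitochondrial counts was called with the degrader in edgeR with all libraries, and the junction of MT-ATP8 and MT-ATP6 because reads in it belong to both genes. Sequences are from the GENCODE 29 transcripts on GRCh38, which has all 35 members at the same positions as the deposited tables; each runs 5′ to 3′ on the gene's own strand. Capitals mark the anticodon of a tRNA, and in the last line the 46 bases shared by both mRNAs. MT-TS1 (tRNA for serine) lies at chrMT:7446-7514 on the minus strand and MT-TD (aspartate) at chrMT:7518-7585 on the plus strand, between MT-CO1 and MT-CO2. MT-TE (glutamate) lies at chrMT:14674-14742 on the minus strand, between MT-ND6 and MT-CYB. MT-TL1 (leucine) lies at chrMT:3230-3304 on the plus strand, just before MT-ND1. The junction shown is chrMT:8512-8587, plus strand.
MT-TS1: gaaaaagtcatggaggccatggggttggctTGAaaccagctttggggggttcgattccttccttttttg
MT-TD: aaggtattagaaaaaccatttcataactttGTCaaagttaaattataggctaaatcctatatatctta
MT-TE: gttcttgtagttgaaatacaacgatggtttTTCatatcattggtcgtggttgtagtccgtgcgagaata
MT-TL1: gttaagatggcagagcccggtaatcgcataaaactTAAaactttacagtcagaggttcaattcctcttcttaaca
MT-ATP8 to MT-ATP6: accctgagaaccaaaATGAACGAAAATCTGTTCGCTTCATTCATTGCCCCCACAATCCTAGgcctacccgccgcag

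Other members also share bases: 7 between MT-ND4L and MT-ND4, 1 between MT-ATP6 and MT-CO3, 1 between MT-TC and MT-TY, and 3 between MT-TI and MT-TQ, which face opposite ways. How the authors' counting treated strand, overlaps and reads that match several places is not stated in the sources used here. Reads of these pairs, and reads that run over a tRNA from a neighbouring mRNA or from the other strand, cannot be told apart, so the values of the pairs and of the tRNAs are uncertain.

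The smallest library held 12.6 M counts and the largest 23.1 M (M, mega), and all 35 members were counted in every library. The labelled cell type was checked on plasma cell markers: 9 of 9 were above 10 ppm of nuclear counts in every library, where ppm is parts per 1000000 and nuclear counts are those of all genes off chromosome MT. Among markers of other lineages, the T cell gene CD3E (13.6 to 51.1), the keratin gene KRT18 (8.95 to 17.7) and the monocyte gene CSF1R (0.442 to 12.1) had the highest levels, while the other T cell genes CD3D, CD4 and CD8A had at most 0.588 ppm of nuclear counts. EP300 had 61.6, 184, 59.4 and 62.8 ppm of nuclear counts in degrader 1 to 4, against 47.3, 58.7, 58.9 and 54.8 in DMSO 1 to 4. It had 59.8, 45.6, 40.1 and 45.0 in KO 1 to 4, against 118, 110, 109 and 111 in NTC 1 to 4. In the edgeR fit of all genes EP300 was lower in the KO than in NTC (log2 fold change −1.25 ± 0.11 SE, adjusted p = 2.2e-04), and was not called with the degrader (0.79 ± 0.35, adjusted p = 0.249).

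Degrader 2 and KO 1 stood apart from the rest of their groups before any comparison. The mitochondrial share of counts was 5.99%, 64.9%, 6.29% and 6.96% in degrader 1 to 4, against 19.7%, 13.4%, 23.5% and 15.5% in DMSO 1 to 4. It was 47.7%, 10.2%, 10.7% and 11.4% in KO 1 to 4, against 8.91%, 9.71%, 10.3% and 9.59% in NTC 1 to 4. Degrader 2 was above every other library while degrader 1, 3 and 4 were below every DMSO library, and KO 1 was far above the other KO and the NTC libraries. Exact binomial 95% intervals, which cover counting error only, were narrow at this depth (64.8% to 64.9% for degrader 2).

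**Figure D1:**
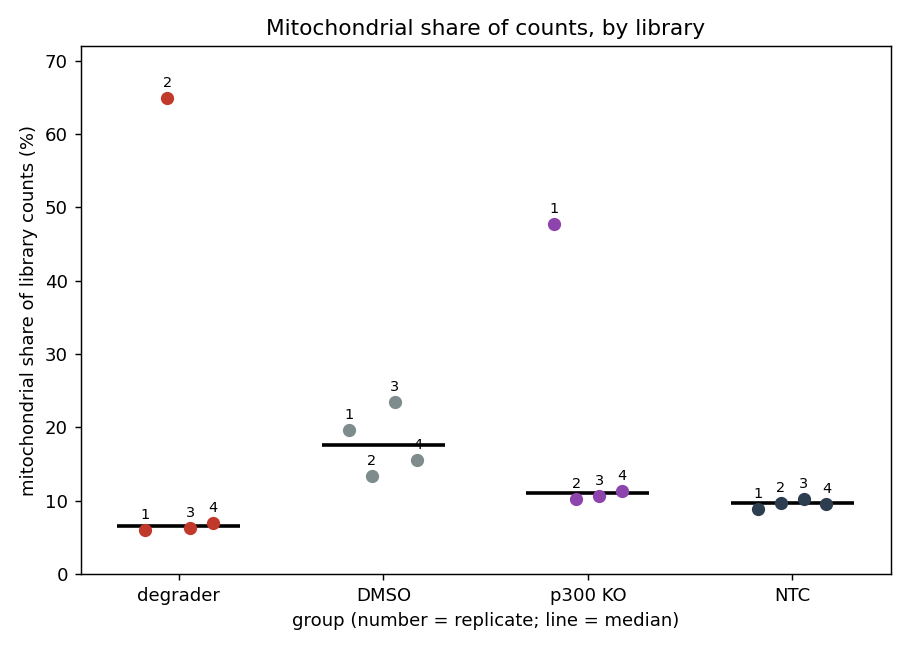
Mitochondrial share of library counts in percent (y axis) for each library, by group (x axis); numbers give the replicate and lines the group median. Degrader 2 (64.9%) and KO 1 (47.7%) lie far above the other libraries of their groups, and degrader 1, 3 and 4 (5.99% to 6.96%) lie below DMSO 1 to 4 (13.4% to 23.5%).

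Other RNA classes and markers moved with one or both of these libraries. Nuclear-retained RNA (a list of 5 long RNAs led by MALAT1 and NEAT1) summed to 35194 ppm of nuclear counts in degrader 2, against 2800 to 3755 in degrader 1, 3 and 4 and 3514 to 6062 in DMSO. It summed to 25837 in KO 1, against 4287 to 4826 in KO 2 to 4 and 2351 to 3037 in NTC. The mRNAs of cytoplasmic ribosomal proteins made up 10.96% of nuclear counts in degrader 2, against 14.9% to 16.1% in the other degrader libraries, and 11.2% in KO 1, against 11.4% to 12.5% in KO 2 to 4. The 9 plasma cell markers summed to 9837 ppm of nuclear counts in degrader 2, against 17309 to 17855 in its mates and 13552 to 17916 in DMSO, and to 13909 in KO 1, against 14705 to 14834 in KO 2 to 4 and 14202 to 14716 in NTC. JCHAIN made up most of this sum, with 7193 in degrader 2, against 12213 to 12926 in its mates. The plasma cell transcription factors on the list did not move together. XBP1 had 705 in degrader 2, against 1940 to 2122 in its mates, and 996 in KO 1, against 1791 to 1838 in KO 2 to 4. PRDM1 went the other way, with 298 in degrader 2, against 101 to 108 in its mates. In KO 1 PRDM1 had 367, against 230 to 273 in KO 2 to 4. IRF4 had 314 in degrader 2, against 259 to 275 in its mates. In KO 1 IRF4 had 426, against 437 to 465 in KO 2 to 4. The 4 markers of earlier B cells summed to 21.03 in degrader 2, against 5.36 to 7.30 in its mates, and to 5.55 in KO 1, against 3.63 to 4.69 in KO 2 to 4. Of these 4, CR2 in degrader 2 lay within its mates (0.452, against 0.06 to 0.773). Marker sums of other lineages were also higher in degrader 2: epithelium (16.3, against 10.1 to 12.9) and erythroid (2.03, against 0.598 to 0.718). So were those of monocytes (1.13, against 0.608 to 0.958) and fibroblasts (0.678, against 0.0598 to 0.387). The T cell sum was lower (13.8, against 25.7 to 27.9). Only 4.42 M nuclear counts remained in degrader 2 and 8.66 M in KO 1. The part of RNA quality or cell state in these libraries was not tested.

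The share was compared between groups on the log2 ratio of mitochondrial to nuclear counts. With all libraries the degrader mean lay 0.46 below the DMSO mean on this log2 scale (difference −0.46, two-sided exact permutation p = 0.80, n = 4 each). As a plain percentage the difference had the other sign: 21.0% ± 29.2 with the degrader and 18.0% ± 4.47 in DMSO (SD, n = 4 each). Without degrader 2 the log2 difference was −1.65, a ratio of 0.318, with no overlap between the groups; the exact p of 0.0571 is the smallest that 3 libraries against 4 allow. On the log2 scale the size of the difference thus rests on the inclusion of degrader 2. As a plain percentage, where the degrader mean without degrader 2 was 6.41%, the direction rests on that library too.

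In the KO comparison the log2 difference was 0.91 with all libraries (20.01% ± 18.5 in the KO and 9.62% ± 0.558 in NTC, SD, n = 4 each; two-sided exact permutation p = 0.0571, where 0.0286 is the smallest possible). Without KO 1 it was 0.18, with 10.8% ± 0.570 in the KO (n = 3) and an exact p of 0.114. KO 2 then lay below NTC 3, so the groups overlapped. In bulk RNA, more mitochondrial RNA and less nuclear RNA per cell cannot be told apart from these shares, nor can a change in the number of cells of one kind from a change in RNA per cell.

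Gene by gene, counts were first scaled to the whole library with TMM, so that a member is measured against all genes. On this scaling all members carry the library's mitochondrial total, so their calls are not separate results. With the degrader 0 of 35 members passed an adjusted p under 0.05 in edgeR's quasi-likelihood test (1 at an unadjusted p under 0.05; limma-voom also called 0, and DESeq2 gave no member an adjusted p), against 4.76% of all 15872 genes tested. The median log2 fold change of the members was 1.47 in edgeR (range 1.00 to 2.69), against 0.05 for all genes. Limma-voom put that median at −0.17, and scaling by total counts alone at 0.52, so no direction is given for the members with all libraries.

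Without degrader 2 edgeR called 32 of 35 members lower with the degrader than in DMSO. Across all genes 20.3% were called lower and 38.5% in either direction. The mitochondrial share itself, with 1 value per library, had an exact permutation p of 0.0571 in that setting, the smallest possible. The median of the members was −1.47, against −0.04 for all genes. MT-CO1, the catalytic subunit of complex IV and the most counted member, had 16362, 17904 and 18944 ppm of nuclear counts in degrader 1, 3 and 4, against 63034, 43933, 82252 and 52020 in DMSO 1 to 4; it had 470542 in degrader 2. Its log2 fold change was −1.68 ± 0.17 without degrader 2 (adjusted p = 5.7e-06). Among the mRNAs the change without degrader 2 ran from −1.88 for MT-ATP8 to −1.27 for MT-CYB. The 3 members not called were MT-TS1 (−0.08 ± 0.24), MT-TD (−0.03 ± 0.36) and MT-TK, the lysine tRNA (−0.73 ± 0.30).

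In the KO 0 of 35 members were called against the whole library with all libraries (24 at an unadjusted p under 0.05, lowest adjusted p = 0.0953; limma-voom called 0, and DESeq2 called 2 of the 3 members it gave an adjusted p), among 17.0% of 17350 genes (6.23% called higher). Their median was 1.59 (range 1.19 to 2.07), against 0.02 for all genes. Without KO 1, 15 members were higher in the KO than in NTC and 0 were lower. Across all genes 19.1% were then called higher and 40.9% in either direction. The mitochondrial share itself, with 1 value per library, had an exact permutation p of 0.114 in that setting, and the groups overlapped. The 15 were 11 of the 13 mRNAs and the tRNAs MT-TL1, MT-TQ, MT-TH and MT-TS2, and the median of all 35 was 0.15. The largest mRNA change was 0.26 ± 0.06 for MT-ND3, a subunit of complex I (adjusted p = 2.0e-04). MT-CO2 and MT-ND4L were the mRNAs not called (0.13 ± 0.05, adjusted p = 0.0523, and 0.11 ± 0.06, adjusted p = 0.11).

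The composition of the mitochondrial RNA was then measured apart from its total, by giving each member as a share of the library's mitochondrial counts. Shares within a total are tied together: when some go up, others go down. Per kilobase, the mean mRNA levels in DMSO ran from 33813 (MT-ND3) to 178021 (MT-ATP6) ppm of mitochondrial counts. MT-ATP6, MT-CO1 and MT-ATP8 held the 3 highest ranks in every library, and MT-ND3 the lowest in every library. In DMSO MT-ATP6 had 178021 ± 10130 ppm of mitochondrial counts per kilobase, MT-CO1 177010 ± 8166, MT-ATP8 151538 ± 6060, MT-ND4 104833 ± 7727, MT-CO3 98780 ± 2037 and MT-CO2 98050 ± 4529 (SD, n = 4). MT-ATP6 and MT-CO1 did not differ beyond their spread, nor did MT-ND4, MT-CO3 and MT-CO2. At the low end were MT-ND1 (39150 ± 435), MT-ND2 (38995 ± 1080) and MT-ND3 (33813 ± 2046), all subunits of complex I; MT-ND1 and MT-ND2 did not differ beyond their spread. The lone minus-strand mRNA, MT-ND6, held rank 8 or 9 of 13 in every library.

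**Figure D2:**
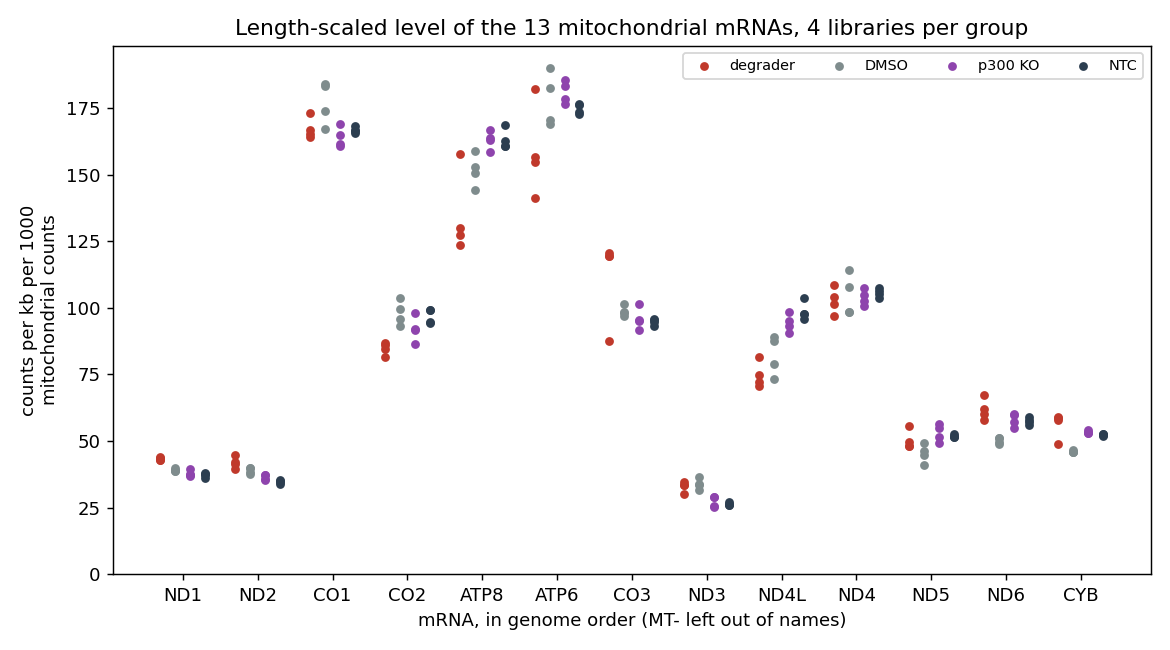
Counts per kilobase in parts per 1000 of mitochondrial counts (y axis) of the 13 mRNAs in genome order (x axis), with 1 point per library and 4 libraries per group. MT-ATP6, MT-CO1 and MT-ATP8 hold the 3 highest ranks in every library and MT-ND3 the lowest.

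To test the composition, each member's counts were fitted with the library's mitochondrial total as its offset and nuclear genes with the nuclear total, and p-values were adjusted over the whole table. With the degrader 4 of 35 members were called, all higher than in DMSO and all tRNAs: MT-TS1, MT-TD, MT-TE and MT-TL1. Across all genes 1.17% were called higher, 2.99% lower and 4.16% in either direction. None of the 13 mRNAs was called in edgeR on these 8 libraries, and the median of the 35 was 0.28 (range −0.21 to 1.49). DESeq2 on the same libraries called 12 members, and 1667 of 15872 genes (605 higher, 1062 lower). Among the 12 were the mRNAs MT-ND1, MT-ND6 and MT-CYB (higher) and MT-CO2 (lower). An edgeR fit of all 16 libraries called 9 members, among them MT-ND6 and MT-CYB, and 2132 of 18068 genes (949 higher, 1183 lower).

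MT-TS1, a serine tRNA, had 47.0, 43.3, 37.0 and 43.2 ppm of mitochondrial counts in degrader 1 to 4, against 10.5, 23.4, 14.8 and 12.3 in DMSO 1 to 4. Degrader 2 was close to its mates and the groups did not overlap. The log2 fold change was 1.49 ± 0.24 (adjusted p = 0.0112), and these shares rest on 45 to 354 counts per library with the degrader and 35 to 62 in DMSO. The call held when any library but DMSO 4 was left out (adjusted p = 0.0544 without it).

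MT-TD, the aspartate tRNA, had 17.9, 16.8, 28.0 and 20.8 ppm of mitochondrial counts in degrader 1 to 4, against 5.83, 4.60, 9.10 and 9.84 in DMSO 1 to 4. The log2 fold change was 1.47 ± 0.30 (adjusted p = 0.0273). The groups did not overlap. MT-TD is the least counted of the 4 called members, with 12 to 38 counts in each DMSO library. MT-TS1 and MT-TD are neighbours on the genome, 3 bases apart and on opposite strands.

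MT-TE, the glutamate tRNA, had 255, 278, 226 and 255 ppm of mitochondrial counts in degrader 1 to 4, against 134, 187, 163 and 150 in DMSO 1 to 4. The groups did not overlap, and the log2 fold change was 0.68 ± 0.14 (adjusted p = 0.0319). MT-TL1, a leucine tRNA and one of the most counted tRNAs, had 1336, 1528, 1501 and 1396 in degrader 1 to 4, against 913, 1021, 1035 and 984 in DMSO 1 to 4. The groups did not overlap here either, and MT-TL1 rose by 0.54 ± 0.12 on the log2 scale (adjusted p = 0.0394). The calls of MT-TD and MT-TL1 were lost without any one library other than degrader 2, and that of MT-TE in 6 of the 8 such fits, all but those without degrader 2 or DMSO 2. In the fits without 1 library the log2 fold change of MT-TD was 1.31 to 1.64 (adjusted p up to 0.0982). That of MT-TL1 was 0.51 to 0.58 (adjusted p up to 0.146) and that of MT-TE 0.60 to 0.77 (adjusted p up to 0.128).

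**Figure D3:**
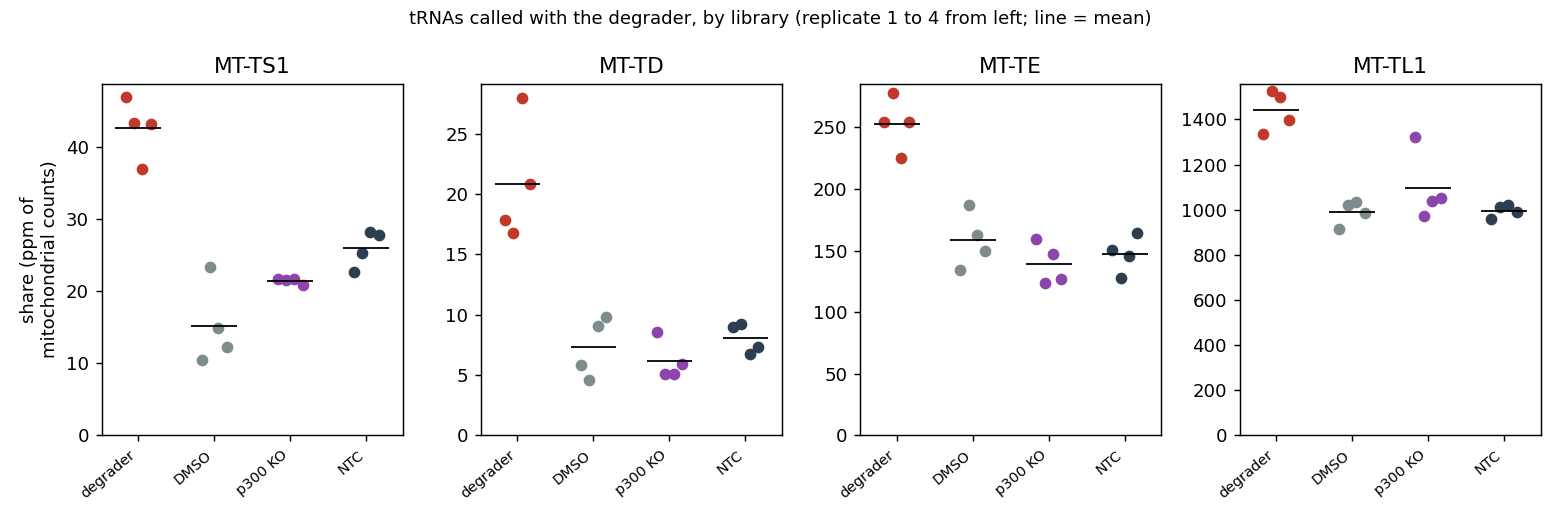
Share in ppm of mitochondrial counts (y axis, from 0) of MT-TS1, MT-TD, MT-TE and MT-TL1 in each library, by group (x axis; replicates 1 to 4 from left, line at the mean). In all 4 panels every degrader library lies above every DMSO library.

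The other tRNAs showed a wide range of levels. MT-TN, for asparagine, was the most counted at 2717 to 3975 ppm of mitochondrial counts with the degrader, against 2232 to 3038 in DMSO. MT-TM (methionine), MT-TA (alanine) and MT-TK (lysine) had at most 38.1 in any library of these groups. MT-TP, for proline, had 938 to 1058 with the degrader and 849 to 1014 in DMSO (0.08 ± 0.12, adjusted p = 0.767). MT-TT, for threonine, had 40.03 to 52.3 with the degrader and 31.2 to 43.2 in DMSO (0.34 ± 0.15, adjusted p = 0.263). MT-TR, for arginine, had 23.1 to 51.2 with the degrader and 20.1 to 31.02 in DMSO (0.56 ± 0.26, adjusted p = 0.28). These groups overlapped, and without degrader 2 MT-TR was called (0.76 ± 0.21, adjusted p = 0.0119). Taken as 1 sum, the 22 tRNAs made up 1.15%, 1.501%, 1.13% and 1.21% of mitochondrial counts in degrader 1 to 4, against 0.895%, 1.06%, 1.00% and 1.08% in DMSO 1 to 4. The 14 plus-strand tRNAs made up 0.477% to 0.554% with the degrader and 0.331% to 0.397% in DMSO. The 8 minus-strand tRNAs made up 0.657% to 0.947% with the degrader and 0.563% to 0.687% in DMSO, so these ranges overlapped.

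A list of RNAs outside the mitochondria moved as well. The list of 10 RNAs without a poly(A) tail summed to 132 to 233 ppm of nuclear counts with the degrader, against 527 to 686 in DMSO. It summed to 105, 137, 126 and 333 in KO 1 to 4, against 114 to 120 in NTC. Of the 10, 5 had no counts in any library and only 1 was above 10 ppm in every library, so the sum rests on few genes. Its 1 tested member with the degrader, RN7SL2, the RNA of the signal recognition particle, was lower (−1.49 ± 0.21, adjusted p = 0.0065). In the KO 3 members of the list were tested, with 2 called lower and 0 higher (median −3.36), among 10.7% and 6.23% of all genes. Without KO 1 these were 2 lower and 1 higher (median −3.53), among 21.8% and 19.1% of all genes. The part of such RNAs in the tRNA values was not tested.

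Among the mRNAs with the degrader, MT-CYB, the complex III subunit, held 6.59%, 5.56%, 6.67% and 6.76% of mitochondrial counts in degrader 1 to 4, against 5.23%, 5.34%, 5.25% and 5.25% in DMSO 1 to 4. The groups did not overlap, but degrader 2 was nearer to DMSO than its mates were. Over all 8 libraries the log2 fold change came to 0.28 ± 0.12 with an adjusted p of 0.224. Over the 7 without degrader 2 it came to 0.34 ± 0.07 with an adjusted p of 0.0015. MT-CO3, of complex IV, held 9.46%, 6.87%, 9.36% and 9.37% in degrader 1 to 4, against 7.69%, 7.97%, 7.73% and 7.59% in DMSO 1 to 4. Here degrader 2 was below every DMSO library while the other degrader libraries were above them, and the log2 fold change was 0.18 ± 0.14 (adjusted p = 0.528) with all libraries and 0.28 ± 0.07 (adjusted p = 0.0053) without degrader 2.

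MT-ND6, of complex I and the minus-strand mRNA, held 3.16%, 3.53%, 3.03% and 3.27% in degrader 1 to 4, against 2.61%, 2.57%, 2.69% and 2.68% in DMSO 1 to 4. The groups did not overlap. In edgeR on the libraries of this comparison it was called without degrader 2 (0.26 ± 0.07, adjusted p = 0.0117) and not with all 8 (0.30 ± 0.11, adjusted p = 0.181). MT-ND1, also of complex I, held 4.19%, 4.16%, 4.10% and 4.11% with the degrader, against 3.70%, 3.80%, 3.75% and 3.72% in DMSO. Its groups did not overlap either, yet edgeR called it in neither fit (0.15 ± 0.11, adjusted p = 0.504, and 0.14 ± 0.07, adjusted p = 0.114, without degrader 2).

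MT-CO2, of complex IV, and both ATP synthase mRNAs were lower without degrader 2. MT-CO2 held 5.93%, 5.88%, 5.59% and 5.78% in degrader 1 to 4, against 7.08%, 6.81%, 6.56% and 6.37% in DMSO 1 to 4, all lower. MT-ATP6 held 10.7%, 12.4%, 9.62% and 10.5% in degrader 1 to 4, against 12.9%, 11.5%, 12.4% and 11.6% in DMSO 1 to 4, and degrader 2 lay within the DMSO range. MT-ATP8, whose gene overlaps MT-ATP6, held 2.69%, 3.27%, 2.56% and 2.64% in degrader 1 to 4, against 3.29%, 2.98%, 3.16% and 3.12% in DMSO 1 to 4, with the same pattern. Without degrader 2 the log2 fold changes were called for all 3 (MT-CO2 −0.22 ± 0.07, adjusted p = 0.0279; MT-ATP6 −0.24 ± 0.08, adjusted p = 0.0226; MT-ATP8 −0.25 ± 0.07, adjusted p = 0.0137). With all libraries edgeR called none of them (adjusted p = 0.329 for MT-CO2, 0.519 for MT-ATP6 and 0.515 for MT-ATP8).

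**Figure D4:**
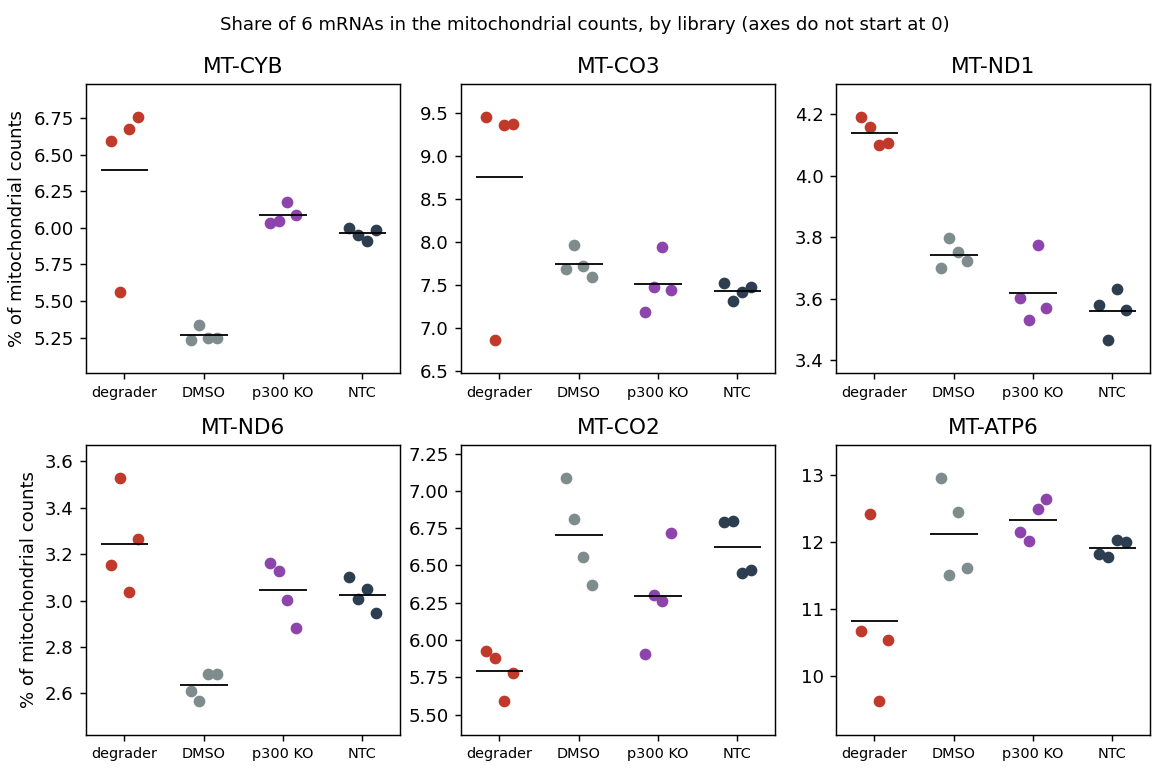
Share of mitochondrial counts in percent (y axes, which do not start at 0) of 6 mRNAs in each library, by group (x axes; replicates 1 to 4 from left, line at the mean). MT-CYB, MT-ND1 and MT-ND6 are above DMSO in every degrader library and MT-CO2 below it. Degrader 2 lies below its mates in MT-CYB and MT-CO3 and above them in MT-ATP6.

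In all, 18 of 35 members were called without degrader 2, with 15 higher (MT-CO3, MT-ND6, MT-CYB and the 12 tRNAs MT-TL1, MT-TI, MT-TQ, MT-TW, MT-TS1, MT-TD, MT-TK, MT-TG, MT-TR, MT-TH, MT-TL2 and MT-TE) and 3 lower (MT-CO2, MT-ATP8, MT-ATP6). Across all genes 21.0% were then called higher and 18.5% lower (39.5% in all), so the count of higher members, 15 of 35, stood above the background and that of lower members below it. The groups did not overlap for 12 members higher and 1 lower with all libraries, against 5.6% and 11.7% of nuclear genes on their own genome's share; without degrader 2 these were 16 and 3, against 17.3% and 27.1%. MT-CO1, the largest member, held 25.3% to 26.7% with the degrader and 25.7% to 28.4% in DMSO. MT-ND4, of complex I, held 13.3% to 14.9% with the degrader and 13.6% to 15.8% in DMSO. The other mRNAs all encode complex I and were called by edgeR in neither fit: MT-ND5 held 8.70% to 10.1% with the degrader and 7.46% to 8.93% in DMSO, and MT-ND2 4.12% to 4.65% with the degrader and 3.93% to 4.16% in DMSO. MT-ND4L held 2.10% to 2.43% with the degrader and 2.18% to 2.65% in DMSO, and MT-ND3 1.04% to 1.20% with the degrader and 1.09% to 1.26% in DMSO.

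Summed by complex, the 7 mRNAs of complex I made up 37.8% to 39.0% of mitochondrial counts with the degrader and 35.9% to 37.1% in DMSO, without overlap. The 3 of complex IV made up 38.2% to 41.6% with the degrader and 40.5% to 43.2% in DMSO, and the 2 of the ATP synthase 12.2% to 15.7% with the degrader and 14.5% to 16.2% in DMSO, both with overlap. In the KO the sums for complex I, complex IV and the ATP synthase were 37.9% to 38.8%, 38.5% to 39.9% and 15.3% to 16.01%, against 37.9% to 38.1%, 39.7% to 39.8% and 15.1% to 15.5% in NTC.

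**Figure D5:**
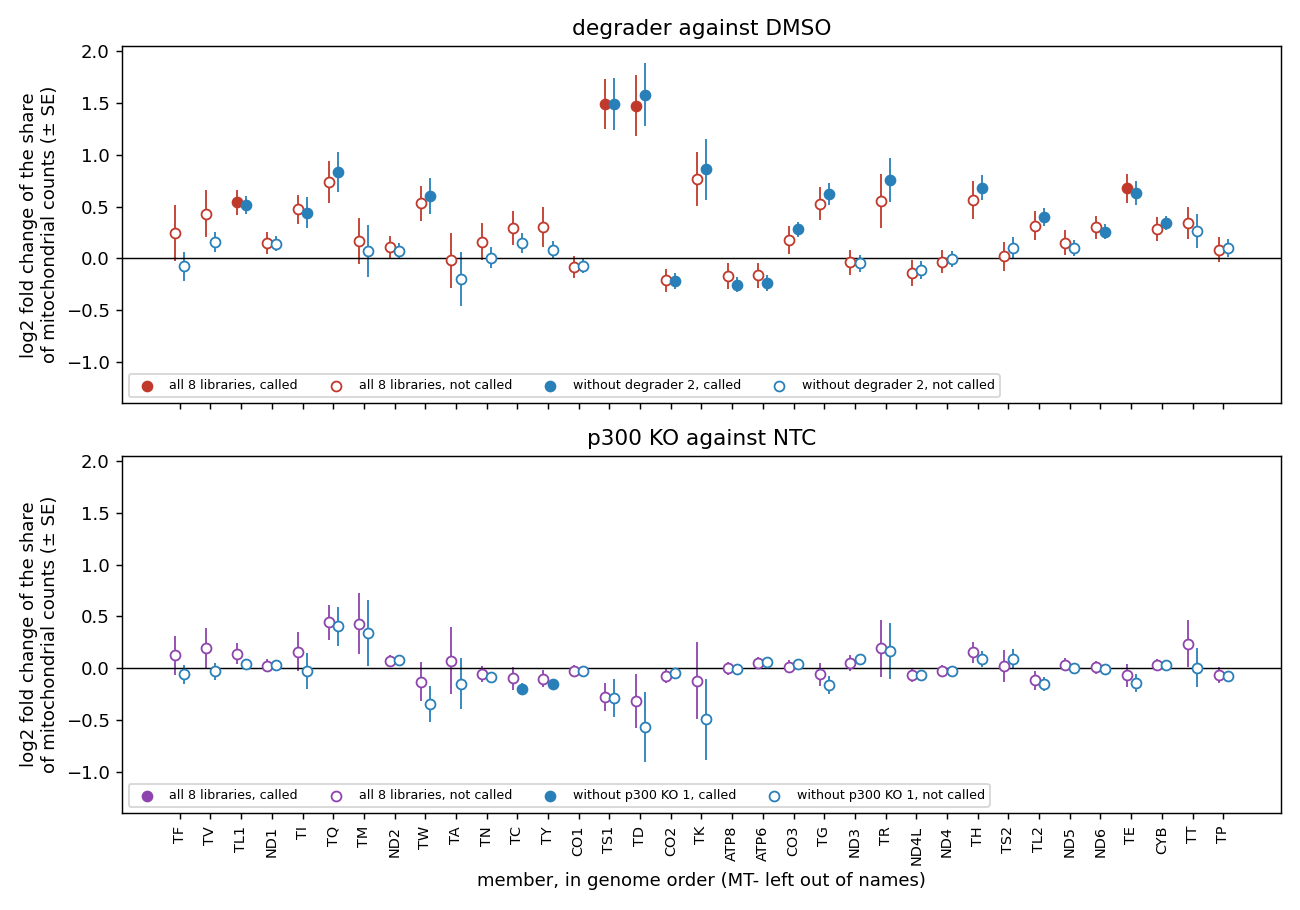
Log2 fold change of each member's share of mitochondrial counts (y axis, bars ± SE) for the 35 members in genome order (x axis), degrader against DMSO above and p300 KO against NTC below, with all 8 libraries of a comparison and without degrader 2 or KO 1. Filled points are called at an adjusted p under 0.05: 4 and 18 in the upper panel, 0 and 2 in the lower.

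In the KO no change of composition was called with all libraries. With all libraries 0 of 35 members were called in edgeR (1 at an unadjusted p under 0.05, and DESeq2 also called 0), among 15.1% of all genes (4.67% called higher), with a median of 0.02 and a range of −0.32 to 0.44. MT-CYB held 6.03%, 6.04%, 6.18% and 6.09% in KO 1 to 4, against 6.00%, 5.95%, 5.91% and 5.99% in NTC 1 to 4, and MT-ND2, of complex I, 3.74%, 3.68%, 3.89% and 3.90% in KO 1 to 4, against 3.60%, 3.54%, 3.66% and 3.68% in NTC 1 to 4. These were the 2 members higher in every KO library than in every NTC library, and MT-TS1 the 1 member lower, against 12.9% of nuclear genes higher and 15.5% lower. Without KO 1 the members without overlap were 2 higher and 5 lower (MT-TW, MT-TC, MT-TY, MT-TS1 and MT-TD), against 21.1% and 21.3% of nuclear genes (42.4% in all). The log2 fold changes of MT-CYB and MT-ND2 were small and not called: 0.03 ± 0.06 for MT-CYB (adjusted p = 0.753) and 0.07 ± 0.06 for MT-ND2 (adjusted p = 0.448).

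MT-TS1 had 21.8, 21.6, 21.7 and 20.9 ppm of mitochondrial counts in KO 1 to 4, against 22.7, 25.3, 28.2 and 27.9 in NTC 1 to 4 (−0.28 ± 0.13, adjusted p = 0.181). MT-TD had 8.60, 5.06, 5.11 and 5.96 in KO 1 to 4, against 8.97, 9.24, 6.74 and 7.30 in NTC 1 to 4 (−0.32 ± 0.26, adjusted p = 0.435), and KO 1 overlapped NTC. Without KO 1, 2 of 35 members were called, both lower: the cysteine tRNA MT-TC (−0.20 ± 0.06, adjusted p = 0.0033) and its neighbour MT-TY, for tyrosine (−0.16 ± 0.05, adjusted p = 0.0104). Across all genes 20.4% were then called lower and 41.4% in either direction. KO 1 itself had the highest share of MT-TC (999 ppm of mitochondrial counts, against 689 to 817 in KO 2 to 4 and 854 to 930 in NTC).

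Several tRNA shares in degrader 2 and KO 1 lay outside the range of the other libraries of their groups. MT-TF, for phenylalanine, had 942 ppm of mitochondrial counts in degrader 2, against 445 to 492 in the other degrader libraries, and 390 in KO 1, against 227 to 290 in the other KO libraries. MT-TV, for valine, had 1296 in degrader 2, against 676 to 742 in its mates, and 641 in KO 1, against 358 to 426 in KO 2 to 4. Both genes flank the small ribosomal RNA gene. MT-TY had 2846 in degrader 2, against 1680 to 1824 in degrader 1, 3 and 4, and 1864 in KO 1, against 1580 to 1655 in KO 2 to 4. MT-TG, for glycine, was lower in degrader 2 (358) than in its mates (416 to 535), and higher in KO 1 (190) than in KO 2 to 4 (143 to 158).

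The 2 effects were then set against each other in a fit of all 16 libraries, as the KO effect minus the degrader effect on the share of mitochondrial counts. The difference was called for 3 of 35 members, all lower: MT-TS1 (−1.77 ± 0.27, adjusted p = 0.0011), MT-TD (−1.79 ± 0.39, adjusted p = 0.0123) and MT-TE (−0.75 ± 0.18, adjusted p = 0.0203). Across all genes 3.24% were called lower, 2.72% higher and 5.97% in either direction. Without both degrader 2 and KO 1, 15 members were called, 2 higher (MT-ATP6 and MT-ATP8) and 13 lower, among 11.9% of genes higher and 22.0% lower (33.9% in all). On whole-library scaling 0 members differed in edgeR (0 at an unadjusted p under 0.05; DESeq2 gave no member an adjusted p), among 6.58% of all genes (2.82% higher, 3.76% lower). Without both libraries 32 were higher and 0 lower on that scaling, among 15.3% higher and 16.7% lower of all genes. MT-TS1 and MT-TD kept their call without any 1 library, while that of MT-TE was lost without NTC 4 (adjusted p = 0.0558). The KO libraries carry a genotype label and the degrader libraries a treatment of 6 h, and the 2 experiments had their own controls.

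The nucleus holds old copies of mitochondrial sequence, and reads of mitochondrial RNA can be counted there. Of 399 genes named as such copies, 184 had counts, and MTATP6P1, MTCO1P12 and MTND2P28, all on chromosome 1, held 97.1% of them. The sum over all copies was 400 to 580 ppm of nuclear counts in degrader 1, 3 and 4 and 11787 in degrader 2, against 992 to 2216 in DMSO. It was 6950 in KO 1 and 667 to 851 in KO 2 to 4, against 674 to 786 in NTC. Set against the mitochondrial counts it stayed between 5.86 and 8.65 parts per 1000 in all 16 libraries. With all libraries no copy was called in either comparison or in their difference (13, 13 and 18 tested). Across all genes 4.76%, 17.0% and 6.58% were called in these fits. Without degrader 2, 11 of 15 tested copies were lower with the degrader than in DMSO (list median −1.41), among 20.3% of all genes. Without KO 1, 2 of 13 were higher in the KO than in NTC (median 0.20). Across all genes 19.1% were higher there, so this count is near that share. Without both libraries 11 of 17 were higher in the difference (median 1.71), among 15.3% of all genes.

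Nuclear genes that serve the mitochondrial genome were read from the whole-library fit in 4 lists. Across all genes that fit called 1.64% higher and 3.12% lower with the degrader, and 18.2% higher and 20.3% lower without degrader 2. Of the 9 tested genes of mitochondrial transcription, 1 was higher with the degrader: TFAM, which packs mitochondrial DNA and opens its promoters. TFAM had 48.1, 58.3, 47.6 and 47.5 ppm of nuclear counts in degrader 1 to 4, against 36.0, 37.6, 42.3 and 37.9 in DMSO 1 to 4, with no overlap. TFAM thus rose by 0.45 ± 0.10 on the log2 scale (adjusted p = 0.0426); leaving degrader 2 out gave 0.39 ± 0.08 (adjusted p = 0.0023). The median of the list was 0.19, against 0.05 for all genes. POLRMT, the polymerase, had 232, 189, 236 and 238 in degrader 1 to 4, against 290, 247, 237 and 264 in DMSO 1 to 4 (−0.14 ± 0.14, adjusted p = 0.60).

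None of 12 genes of mitochondrial DNA copying and none of 36 genes that cut, modify, stabilise or break down mitochondrial RNA were called with the degrader, with medians of 0.08 and −0.01. Without degrader 2 the calls were 2 higher of 9 transcription genes, 3 higher and 1 lower of 12 DNA copying genes, 2 higher and 3 lower of 36 RNA-handling genes, and 2 higher and 4 lower of 8 regulators. LRPPRC, which stabilises mitochondrial mRNAs, had 118 to 127 ppm of nuclear counts with the degrader and 127 to 137 in DMSO (−0.04 ± 0.10, adjusted p = 0.838). Of 8 tested regulators of mitochondrial gene number 1 was lower, the nuclear receptor ESRRA (−0.60 ± 0.12, adjusted p = 0.0299), with a list median of −0.18. MYC had 37.8, 37.5, 38.4 and 30.6 in degrader 1 to 4, against 62.3, 82.3, 44.0 and 67.2 in DMSO 1 to 4, with no overlap (−0.76 ± 0.19, adjusted p = 0.0632; −0.77 ± 0.17, adjusted p = 0.0029, without degrader 2).

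In the KO, where 6.23% of all genes were called higher and 10.7% lower, 1 of 9 transcription genes was higher, the termination factor family member MTERF2 (0.37 ± 0.11, adjusted p = 0.0447), and 1 was lower, TFB2M, which opens the promoter with POLRMT (−0.54 ± 0.14, adjusted p = 0.0293). TFAM did not move beyond its error (0.02 ± 0.07, adjusted p = 0.878). POLRMT had 138, 157, 159 and 157 ppm of nuclear counts in KO 1 to 4, against 180, 167, 178 and 184 in NTC 1 to 4, with no overlap (−0.22 ± 0.07, adjusted p = 0.066; −0.18 ± 0.05, adjusted p = 0.0040, without KO 1). Of 12 DNA copying genes the nuclease gene DNA2 was higher (0.46 ± 0.13, adjusted p = 0.0389) and the helicase gene TWNK lower (−0.58 ± 0.10, adjusted p = 0.0041).

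Of 36 RNA-handling genes 1 was higher in the KO and 5 were lower, with a list median of −0.06, against 0.02 for all genes; the lower count is near the share over all genes. FASTK was the higher one (0.42 ± 0.12, adjusted p = 0.0406). The lower ones were DDX28 (−0.53 ± 0.07, adjusted p = 0.0017), a helicase of the mitochondrial ribosome's assembly, MRM1 (−0.56 ± 0.09, adjusted p = 0.0030), an rRNA methyltransferase, TBRG4 (−0.36 ± 0.06, adjusted p = 0.0048), of the FASTK family, GTPBP3 (−0.51 ± 0.11, adjusted p = 0.0137) and PUS1 (−0.34 ± 0.10, adjusted p = 0.0494), both of which modify tRNAs. Of 9 regulators 4 were lower: MYC (−0.93 ± 0.10, adjusted p = 5.1e-04), ESRRA (−0.36 ± 0.07, adjusted p = 0.0075), GABPB1 (−0.38 ± 0.09, adjusted p = 0.0170) and PPARGC1A (−0.80 ± 0.19, adjusted p = 0.0209). MYC had 47.8, 66.4, 56.7 and 58.7 ppm of nuclear counts in KO 1 to 4, against 117, 106, 105 and 106 in NTC 1 to 4. Without KO 1 the calls were 2 higher and 3 lower of 9 transcription genes, 1 higher and 3 lower of 12 DNA copying genes, 2 higher and 9 lower of 36 RNA-handling genes, and 6 lower of 9 regulators. Across all genes 19.1% were then higher and 21.8% lower, and the count of lower RNA-handling genes is near that share.

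The change of TFAM differed between the experiments: the KO effect minus the degrader effect was −0.47 ± 0.12 (adjusted p = 0.0231). TFAM was the 1 gene called of 9 tested on the transcription list. Of 36 RNA-handling genes, 1 was lower in this difference, TBRG4 (−0.54 ± 0.15, adjusted p = 0.0368). Another 1 was higher, PTCD3, which binds mitochondrial rRNA and was called in neither comparison (0.51 ± 0.11, adjusted p = 0.0108). Across all genes 3.76% were called lower and 2.82% higher, so the counts of RNA-handling genes are near those shares. LRPPRC gave 0.06 ± 0.06 in the KO (adjusted p = 0.53) and 0.06 ± 0.11 in the difference (adjusted p = 0.795).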

How the data were processed

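The authors deposited whole-number counts: each library has its own table of 57500 genes. The build GRCh38 and the tools STAR 2.5.2b, Subread 1.5.2 (featureCounts), Trimmomatic 0.36 and DESeq2 1.16.1 are named in the submitters' processing notes, with no order or settings. Per the labels' protocols, total RNA went into NEBNext Ultra II RNA libraries. Members, lists and tests were chosen with earlier results of these data known.

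Counts were fitted with edgeR 4.0.16 in R 4.3.3: filterByExpr at its defaults, the quasi-likelihood test on the 8 libraries of a comparison (all 16 for the difference of effects), Benjamini-Hochberg adjustment over all genes tested, calls at an adjusted p under 0.05. Whole-library scaling used TMM. For the composition, offsets were the log of the mitochondrial total for members and of the nuclear total times its TMM factor for other genes. The SE is the absolute log2 fold change divided by the square root of F, not a separate estimate. Scripts were tested on simulated data. Shares were compared with exact permutation tests. Alternatives were DESeq2 1.42.0, limma-voom (limma 3.58.1), other scalings, no filter, a replicate block and leaving out each library. Tables were made with pandas 2.3.3.

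The text names all members with at least 10 counts on average, the nuclear genes called per list (up to 5, by p), and TFAM, POLRMT, LRPPRC and EP300; genes of the difference and MYC values per library were chosen after their values were seen. Chi-square statistics per degree of freedom between libraries of a group were 2.17 to 35.9, and 229 to 501 in pairs with degrader 2 or KO 1, so no pair was counted as 1. Same-numbered libraries of compared groups had correlations of −0.43 to 0.12, so the numbers do not pair them. The labels name no molecular identifiers, so intervals cover counting error only.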

Additional observations from a re-analysis of the deposited data

Results flagged for a closer look

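In groups of 4, a library was marked where it stood apart from the other 3 by more of the group's range than Dixon's 95% critical value allows. Of 144 such tests over the share and the members, 14 were marked; chance marks about 1 in 20 groups. Degrader 2 accounted for 7. Its mitochondrial share was 64.9%, against 5.99% to 6.96% in degrader 1, 3 and 4. Of its mitochondrial counts, MT-TF held 0.0942% (others 0.0445% to 0.0492%), MT-TV 0.130% (0.0676% to 0.0742%), MT-TN 0.397% (0.272% to 0.279%) and MT-TY 0.285% (0.168% to 0.182%). MT-CO3 held 6.87% (others 9.36% to 9.46%) and MT-CYB 5.56% (6.59% to 6.76%), both lower than in its mates. Nuclear-retained RNA, at 35194 ppm of nuclear counts (parts per 1000000), moved with this library; its part in these values was not tested.

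KO 1 was marked for its mitochondrial share, 47.7%, against 10.2% to 11.4% in KO 2 to 4, and for no member within it. The remaining marks fell on single members: in degrader 3, MT-TI held 0.00486% (others 0.00645% to 0.00658%). In DMSO 2, MT-TI held 0.00483% (others 0.00425% to 0.00433%), MT-TC 0.0728% (0.0836% to 0.0840%) and MT-CYB 5.34% (5.23% to 5.25%). In DMSO 1, MT-TA held 0.00181% (0.00334% to 0.00360%), and in NTC 3, MT-TW held 0.00291% (0.00322% to 0.00326%).

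The KO and degrader effects on the share of mitochondrial counts differed by edgeR's test of the difference for MT-TS1 (−1.77, adjusted p = 0.0011), MT-TD (−1.79, adjusted p = 0.0123) and MT-TE (−0.75, adjusted p = 0.0203), each lower in the KO minus degrader contrast.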

How the results depend on the processing

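The mitochondrial share and the members scaled to the whole library depend on degrader 2 and KO 1. On the percent scale the share differed by 3.00 percentage points (higher with the degrader), against −0.46 on the log2 scale. Leaving out 1 library at a time, 0 to 32 members were called against the whole library with the degrader and 0 to 15 in the KO. With all libraries the member median with the degrader was 1.47 in edgeR, −0.17 in limma-voom and −0.56 with a replicate block. Among the edgeR fits without 1 library, all 13 mRNAs had log2 fold changes below 0 only without degrader 2. Over the 8 such fits the log2 fold changes ran from −1.47 to 1.73 (MT-ND1), −1.55 to 1.76 (MT-ND2), −1.68 to 1.497 (MT-CO1), −1.84 to 1.39 (MT-CO2), −1.88 to 1.61 (MT-ATP8), −1.87 to 1.58 (MT-ATP6) and −1.34 to 1.45 (MT-CO3). For the rest they ran from −1.67 to 1.55 (MT-ND3), −1.71 to 1.40 (MT-ND4L), −1.64 to 1.46 (MT-ND4), −1.50 to 1.88 (MT-ND5), −1.36 to 1.99 (MT-ND6) and −1.27 to 1.68 (MT-CYB). In the KO, DESeq2 called 2 of the 3 members it gave an adjusted p, and a fit without a filter called 10. DESeq2 gave no member an adjusted p on this scaling with the degrader or in the difference of effects, so it has no value there.

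Within mitochondrial counts, 4 members were called with the degrader. DESeq2 called 12 (11 higher, 1 lower), a fit on all 16 libraries 9, no filter 2, both other offsets 4, and fits without 1 library 0 to 18. Across all genes these called 1667, 2132, 428, 661 and 208 to 6436. In the KO fits without 1 library called 0 to 2, among 1246 to 7328 of all genes. For the difference of effects DESeq2 called 8, fits without 1 library 2 to 12, and the fit without both degrader 2 and KO 1 15. Across all genes these called 1865, 663 to 4737 and 6248. On whole-library scaling the last 2 were 0 to 31 members and 32 members, among 766 to 4611 and 5901 of all genes. Limma-voom was not run with genome offsets. The cause of these changes was not tested.

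On whole-library scaling, 755 of all genes were called with the degrader, against 1796 by DESeq2, 394 without a filter and 2294 in a fit of 16 libraries. The count was 164 with total counts and 197 to 6278 without 1 library. In the KO 2944 were called, against 3962 by DESeq2, 2291 without a filter and 1484 in a fit of 16 libraries. The count there was 1263 with total counts and 1542 to 7246 without 1 library.

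The replicate numbers did not pair the libraries: no library correlated best with its own number. With the replicate number as a block the share differed by −0.46 with the degrader (exact p = 0.875) and 0.91 in the KO (exact p = 0.125, the smallest possible), 24 and 1304 genes were called, members called within mitochondrial counts were 0 with the degrader and 0 in the KO, and the difference was called for 2. Across all genes the block fits with genome offsets called 31 with the degrader, 1219 in the KO and 270 in the difference. Whole-library members stayed at 0, with medians of −0.56 and 0.82. Counts of MT-TS1 and MT-TD, under 70 in most libraries, limit the precision of their shares.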

Other observations

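The control groups of the 2 experiments, DMSO and NTC, are not a comparison of the design, and their difference cannot be told apart from that of the experiments. Their mitochondrial RNA was made up differently for several members. MT-TH, the histidine tRNA, had 330 to 455 ppm of mitochondrial counts (parts per 1000000) in DMSO and 196 to 229 in NTC. MT-TG had 266 to 335 in DMSO and 150 to 179 in NTC, and MT-TL2, a leucine tRNA, had 524 to 546 in DMSO and 284 to 360 in NTC. MT-TS1 tended the other way, at 10.5 to 23.4 in DMSO and 22.7 to 28.2 in NTC, but DMSO 2 was above NTC 1, so these ranges overlapped. MT-CYB held 5.23% to 5.34% of mitochondrial counts in DMSO and 5.91% to 6.00% in NTC, and MT-ND6 2.57% to 2.69% in DMSO and 2.95% to 3.10% in NTC.

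The plus-strand tRNAs together made up 0.331% to 0.397% of mitochondrial counts in DMSO and 0.254% to 0.282% in NTC. The minus-strand tRNAs made up 0.563% to 0.687% in DMSO and 0.672% to 0.738% in NTC, with overlap. With the degrader the plus-strand sum was 0.477% to 0.554%.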
